A study of Mus musculus with 21 samples.

Results

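The genes described here encode the proteins of the cytosolic ribosome. They are the genes whose symbol is Rpl or Rps and a number, then at most a single letter a, x or l and a single digit, with nothing after these, together with Rplp0, Rplp1, Rplp2 and Rpsa. The choice used names and no measured value, and symbols with other endings, such as Rpl36al, are outside it. The rule found 82 genes, 51 of the large (60S) and 31 of the small (40S) subunit, among 42760 rows in the Peril table, among 42760 rows in the Fendrr table and among 40770 rows in the linc-Brn1b table. Every one of the 82 symbols occurs once in each table.

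Expression was measured by RNA sequencing of polyadenylated RNA in 3 mouse strains, each lacking a long intergenic noncoding RNA (lincRNA), with wild-type mice as controls. The tissues were whole brain at E18.5 for Peril knockout and wild type, lung at E14.5 for Fendrr knockout and wild type, and for linc-Brn1b knockout and wild type telencephalon of E13.5 embryos, telencephalon of E15.5 embryos and whole brain of P7 pups. Groups had 2 libraries each, with 3 in the labels for the E15.5 knockout of linc-Brn1b. In the knockouts the lincRNA locus was replaced in the germline by a lacZ reporter cassette carrying a selectable neo gene, so every cell of the animal carries the deletion. The embryonic stem cells behind the strains were hybrids of 129S6S v/Ev and C57BL/6N, and the lines were crossed to C57BL/6J. The sample labels call the Peril strain linc-Sox2 and the Fendrr strain linc-Foxf1a.

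The deposited values are FPKM (fragments per kilobase of transcript per 1000000 mapped fragments), with 1 value per group that pools its libraries. The spread between animals and the number of reads behind a value are therefore unknown, and no difference given here was tested against replicate error. A difference is the knockout minus the wild-type value of log2(FPKM + 1), which understates the change of low genes, and a gene enters a comparison when the mean of both groups is at least 1 FPKM. A gene is counted as higher or lower past 1.2-fold when FPKM + 1 differs by at least that ratio. The 3 tables were normalized separately, so levels are set side by side within a table only. In such bulk tissue, a smaller share of a cell type and less RNA per cell cannot be told apart.

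A mammalian ribosome holds a single copy of nearly every one of these proteins, with the acidic stalk proteins P1 and P2 as the main exception. Messages of ribosomal protein genes are short, among the most abundant of a growing cell, and begin with a run of pyrimidines, the 5′ terminal oligopyrimidine tract, through which mTOR signalling adjusts their translation. In developing brain and lung, demand for ribosomes is high in dividing progenitors. A few of the genes have copies, such as Rpl22l1 and Rpl39l, that can take the place of the parent protein in some cells.

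Runs of pyrimidines were frequent near the annotated start in the RefSeq promoter sequences (GRCm38.p6). Promoter windows were found for 64 RefSeq symbols that match the name rule, 76 windows in all. The window counts given here were not limited to the 82 rows, so some of these symbols may lie outside them. Within 50 bases on either side of the annotated start, 49 of these 76 windows (64.5%) held a run of at least 10 C or T bases on the coding strand, against 18.1% of all 32851 windows. The letters CTTTCC, on either strand, were present in 31.6% of the windows of these genes and in 8.97% of all windows. Annotated starts are not exact, so that the tract can lie before or after them. Whether a run counted here is the tract at the start of the message was not tested. The stretches below, each 5′ to 3′ with the longest run in capitals, come from 4 genes among the 10 with the lowest difference at E13.5, from Rpl4, Rpl5 and Rpl7a, which are among the 6 genes of at least 10 FPKM with the smallest differences there, and from Rpl22l1 and its parent Rpl22. They were picked as examples of such runs after the sequences had been seen, and other windows hold shorter runs. The listed position of the run against the annotated start went from -42 (Rpl27) to 26 (Rpl4), with Rpl22l1 at 1. The longest run was 9 bases for Rps16, 7 bases for Rpl7l1 and 5 bases for the other window of Rpl22, which are not shown, and 9 bases for Rpl5.
Rps12, chr10:23787182-23787211, minus strand: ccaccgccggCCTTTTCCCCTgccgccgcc
Rps15a, chr7:118116143-118116172, minus strand: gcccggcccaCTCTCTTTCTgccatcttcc
Rpl27, chr11:101442195-101442224, plus strand: catcctcgCTCCTCCCTCCacacgccggaa
Rps21, chr2:180257403-180257432, plus strand: gcacgagctaCTTCCTTTCTgcgctctcgc
Rpl4, chr9:64173405-64173434, plus strand: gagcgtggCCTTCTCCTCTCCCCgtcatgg
Rpl5, chr5:107900497-107900526, plus strand: gcctacagccaCTCTTTCTCacgtcgcttg
Rpl7a, chr2:26910788-26910817, plus strand: cacaaTTCCCTCTTCTTTCTTTCTCCagca
Rpl22l1, chr3:28805499-28805528, plus strand: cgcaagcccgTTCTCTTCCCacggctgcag
Rpl22, chr4:152325679-152325708, plus strand: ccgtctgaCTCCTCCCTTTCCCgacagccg

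The tissues carried their defining markers, with summed levels of 10 brain genes between 1139 and 2248 FPKM in the brain groups and of 10 lung genes of 1113 and 1146 FPKM in the lung groups. In the wild type, the linc-Brn1b row read 1.60 FPKM (E13.5), 2.50 FPKM (E15.5) and 0.799 FPKM (P7), and it is listed at 0 in each knockout. A row named linc-Cox4nb-4 at the Fendrr position went from 38.4 FPKM in wild type to 0.0450 FPKM in knockout. A row that overlaps Peril, linc-Atp11b-4, was 0.0109 FPKM in the wild type against 4.65 FPKM in the knockout, but it reaches beyond the deletion and so does not check the label. Some highly expressed rows are listed at 0 in a single group, among them Eef1a1 and Tuba1a in the linc-Brn1b knockout at E15.5, at 4664 and 4122 FPKM in wild type. None of the 82 ribosomal protein genes was over 100 FPKM in a group and listed at 0 in the other. The 4 genes of the Y chromosome that were examined were present in only a single genotype of every comparison, wild type for Fendrr and for linc-Brn1b at E13.5 and knockout elsewhere, so that sex cannot be told apart from genotype.

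Ribosomal protein genes took between 6.86% and 23.0% of the summed FPKM of their own table's groups. The share in E14.5 lung was 20.3% in wild type and 23.0% in Fendrr knockout. In E18.5 brain it was 10.8% in wild type and 10.6% in Peril knockout. Wild-type telencephalon had 12.98% at E13.5 and 12.9% at E15.5, and wild-type brain at P7 had 7.98%. For the linc-Brn1b knockouts, the share was 7.41% in E13.5 and 13.6% in E15.5 telencephalon and 6.86% in P7 brain, so that the E13.5 knockout lay near the P7 groups and the other embryonic groups lay together. Both subunits shared in this, with the large subunit at 7.16% in wild type and 4.33% in knockout at E13.5 and the small subunit at 5.82% and 3.08%. At E15.5 the listed 0 of Eef1a1 and Tuba1a lowers the knockout's total, and without the 10 highest rows of the table the shares there were 13.7% in wild type and 14.2% in knockout.

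**Figure D1:**
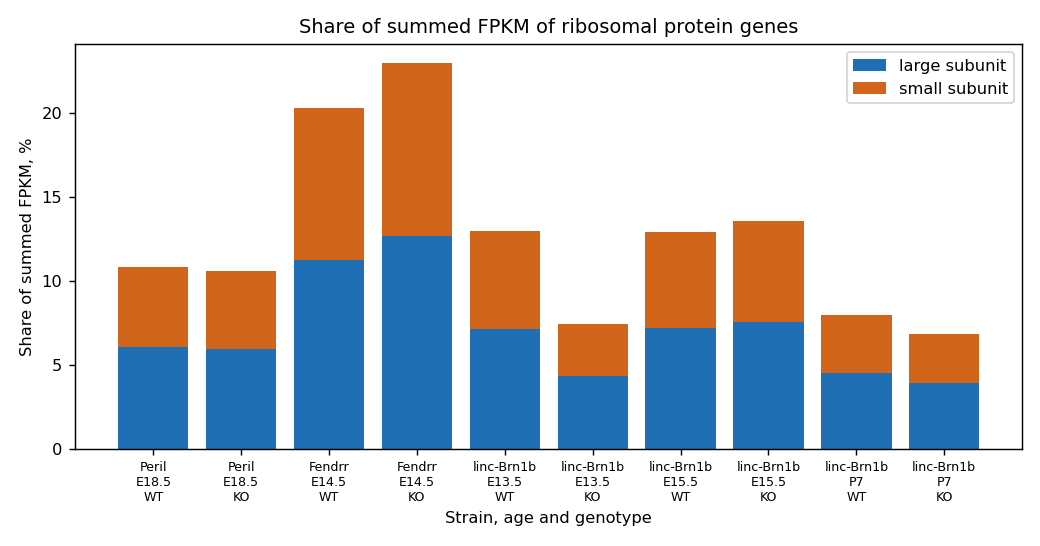
Share of the summed FPKM of all rows taken by the ribosomal protein genes, in percent, for the 10 groups, with large subunit genes in blue and small subunit genes in orange; each bar is 1 pooled value with no error. The linc-Brn1b E13.5 knockout (7.41%) is close to the P7 groups (7.98% and 6.86%), while the E13.5 wild type and both E15.5 groups lie between 12.9% and 13.6%.

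At E13.5, in linc-Brn1b knockout against wild-type telencephalon, every ribosomal protein gene that entered the comparison was lower in the knockout. Of 78 genes, 78 were lower and 0 higher, and 75 were lower past 1.2-fold, against a background of 14.9% of all 13507 genes lower and 16.2% higher past that ratio. The median difference was -1.05, against 0.06 over all genes, and 45 of the 78 genes were below 50% of their wild-type level. The knockout level of the median gene was 48.2% of wild type. The 31 small subunit genes had a median difference of -1.10 and were all lower past 1.2-fold, and the 47 large subunit genes had a median of -0.93 with 44 lower past 1.2-fold. The summed FPKM of all rows was also smaller in the knockout, 381511 against 434190 in wild type. When each group was scaled to the same sum, the median of all genes moved from 0.06 to 0.24 and that of the ribosomal protein genes to -0.87, with 76 of 78 lower, 69 of them past 1.2-fold. That scaling put 45.6% of all genes higher and 9.48% lower past 1.2-fold.

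The gene with the lowest difference was Rpl41, which encodes a very small basic peptide of the large subunit. It was at 1627 FPKM in wild type, the highest of the 82 genes, and at 436 FPKM in knockout, a difference of -1.90 and 26.8% of the wild-type level. Rps16, a small subunit protein near the decoding site, was at 786 FPKM in the wild type against 226 FPKM in the knockout, a difference of -1.79. Rplp1, the stalk protein P1, was at 1123 and 327 FPKM, a difference of -1.78. These genes were picked as the lowest of the ranking, so that their similar differences follow from that choice.

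Rps19, the gene most often mutated in Diamond-Blackfan anaemia, was at 982 FPKM in the wild type against 306 FPKM in the knockout, a difference of -1.68. Rps14, which lies in the region deleted in the 5q- syndrome, was at 930 and 306 FPKM, a difference of -1.60. Rpl39, a short protein in the wall of the exit tunnel for the nascent chain, was at 1028 and 339 FPKM, also with a difference of -1.60. In the knockout these genes, which come next in the same ranking, were between 31.1% and 33.0% of wild type.

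Rps12 was at 1340 FPKM in the wild type against 445 FPKM in the knockout, a difference of -1.59. Rps15a was at 81.4 and 27.9 FPKM, a difference of -1.51. Rpl27 was at 432 and 155 FPKM, a difference of -1.47. Rps21 was at 793 and 285 FPKM, likewise with a difference of -1.47. Of the 10 genes with the lowest difference, 6 thus belong to the small subunit and 4 to the large, and Rps20, Rps27l and Rpl35a came next with differences of -1.47, -1.47 and -1.45.

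At the other end stood genes of the large subunit with long coding sequences. Rpl7l1, a copy of Rpl7 that acts in ribosome assembly, was at 44.1 FPKM in the wild type against 39.9 FPKM in the knockout, a difference of -0.14. Rpl4, which lines the exit tunnel with a long loop, was at 833 and 754 FPKM, a difference of -0.14, and with both groups scaled to the same sum the differences of Rpl4 and Rpl7l1 turned to 0.04 each. Rpl5, a carrier of 5S rRNA, was at 388 and 338 FPKM, a difference of -0.20 that scaling took to -0.01. Rpl3, at the peptidyl transferase centre, was at 709 and 583 FPKM, a difference of -0.28, and Rpl7 was at 935 and 750 FPKM, a difference of -0.32. In the knockout Rpl23a had the highest level, at 979 FPKM, whereas Rpl41 was highest in every other group of the 3 tables.

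**Figure D2:**
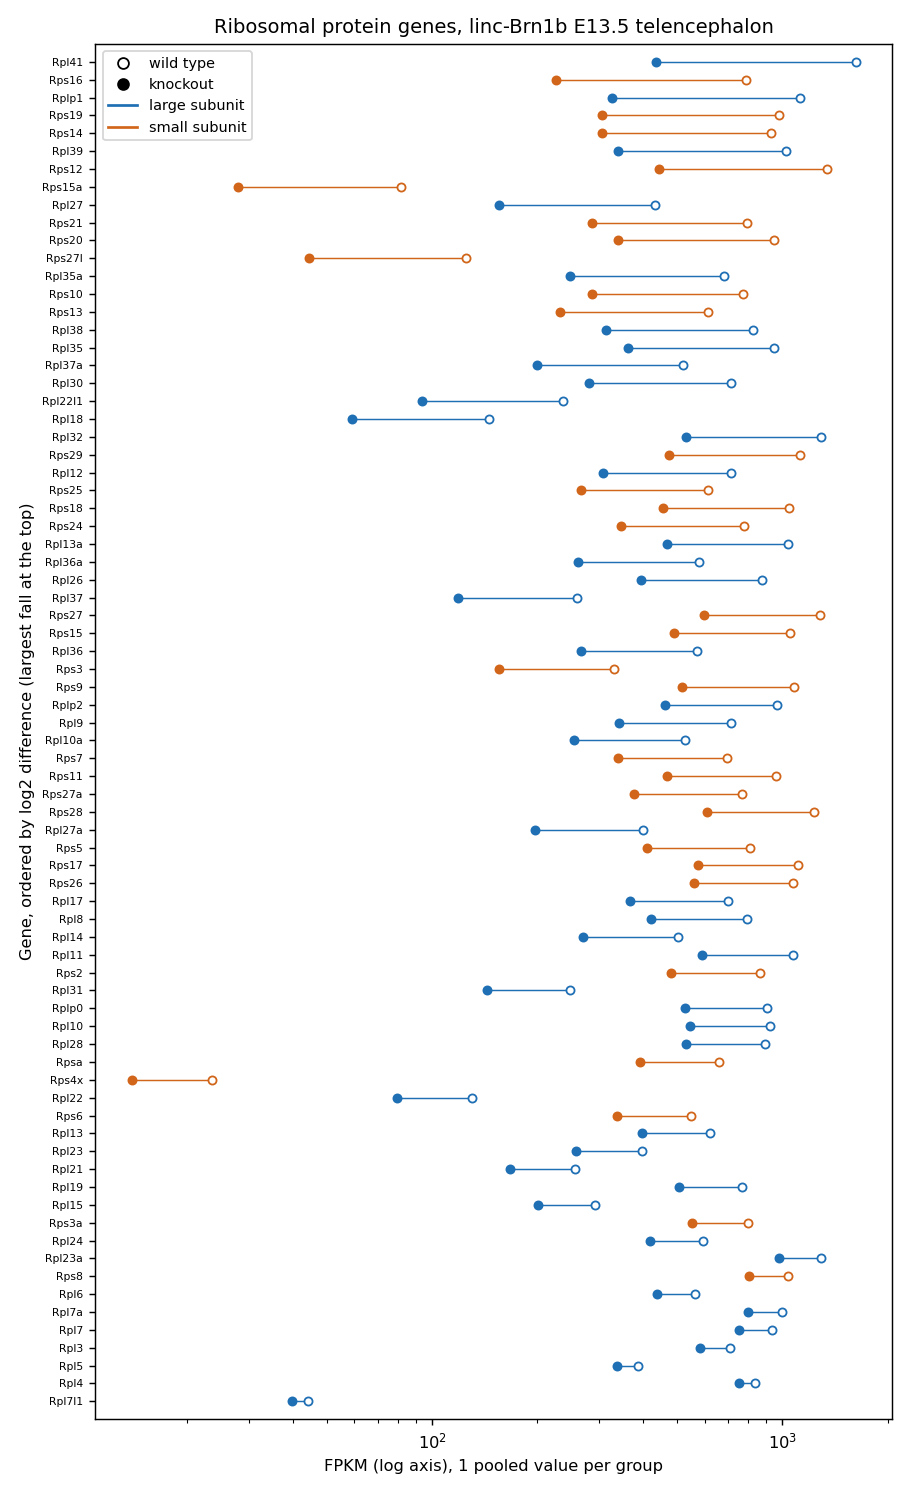
FPKM (log axis) of the 76 ribosomal protein genes with a mean of at least 10 FPKM in linc-Brn1b E13.5 telencephalon, open circles for wild type and filled circles for knockout, ordered from the lowest log2 difference at the top; blue is the large and orange the small subunit, and each circle is 1 pooled value. Every filled circle lies to the left of its open circle, from Rpl41 (1627 to 436 FPKM) to Rpl7l1 (44.1 to 39.9 FPKM).

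Structural groups of the ribosome were lower together at E13.5. All 4 stalk genes (Rplp0, Rplp1, Rplp2 and Rpl12), whose proteins recruit the elongation factors, were lower past 1.2-fold, with a median difference of -1.14. Within the stalk, the anchor Rplp0 was at 907 FPKM in the wild type against 528 FPKM in the knockout (-0.78), Rplp2 at 964 and 461 FPKM (-1.06) and Rpl12 at 714 and 308 FPKM (-1.21), so that Rplp1 (-1.78) was the lowest and Rplp0, with the longest coding sequence, differed least. The 11 genes of the mRNA entry site and head of the small subunit were all lower past 1.2-fold with a median of -1.19, and so were the 7 measured genes of its platform and exit site with a median of -0.98. Of the 11 genes around the exit tunnel, 10 were lower past 1.2-fold, with a median of -0.79. Of the 11 genes mutated in Diamond-Blackfan anaemia, 10 were lower past 1.2-fold, with a median of -1.04, and Rpl5 was the exception.

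The 5S ribonucleoprotein genes, whose proteins also bind Mdm2 and so restrain p53 degradation, stood apart from each other. Rpl5 differed by -0.20, whereas Rpl11 was at 1076 FPKM in the wild type against 592 FPKM in the knockout, a difference of -0.86. The 4 rows named for X-linked genes were lower past 1.2-fold, with Rpl39 at -1.60, Rpl36a at 580 and 261 FPKM (-1.15) and Rpl10 at 922 and 545 FPKM (-0.76). The row named Rps4x, which lies on another chromosome, was at 23.5 and 13.9 FPKM (-0.72). The median of -0.95 over the 4 rows includes Rps4x and so does not describe the X chromosome alone. Rpl39 and Rpl36a were below the median of -1.05 of all 78 genes, and Rpl10 was above it.

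Ribosomal proteins whose symbols do not match the rule had lower values as well. Fau, which encodes the small subunit protein eS30 as a fusion, was at 662 FPKM in the wild type against 254 FPKM in the knockout, a difference of -1.38. Gnb2l1, the scaffold protein Rack1, was at 685 and 435 FPKM (-0.65) and Rpl36al at 227 and 159 FPKM (-0.51). The median of the 4 measured genes of this kind was -0.82.

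Genes for other steps of translation and for making ribosomes did not show a shift of that size, but these lists hold longer genes. The median coding length was 1176 bases for the translation factors and 1738.5 bases for ribosome biogenesis, against 438 bases for the exit tunnel genes. Differences at E13.5 were graded with coding length, as described below, and the part of length in this contrast was not tested. Over all genes, 14.9% were lower and 16.2% higher past 1.2-fold. Of 39 initiation and elongation factors and related genes, 14 were lower and 2 higher past that ratio, with a median of -0.09. The lowest were Eef1b2, the exchange factor of the elongation factor eEF1A, at 188 FPKM in the wild type against 97.3 FPKM in the knockout (-0.94), and Eif6, which keeps the subunits apart, at 41.7 and 23.2 FPKM (-0.82). The highest were Eif4a2, a helicase, at 117 and 142 FPKM (0.28) and the X-linked Eif2s3x at 99.5 and 150 FPKM (0.59), the latter beside its Y-linked partner Eif2s3y, which was seen in wild type only. Of 83 measured genes for rRNA transcription, processing and subunit assembly, 9 were lower and 4 higher past 1.2-fold, with a median of 0.07, close to the 0.06 of all genes. Among these, Nop10 (56.4 and 30.8 FPKM, -0.85) and Nhp2 (40.6 and 22.2 FPKM, -0.84), both short proteins of the pseudouridylation complex, had the lowest differences, and Nol10 (12.9 and 17.1 FPKM, 0.39) and Taf1b (12.8 and 21.4 FPKM, 0.70) the highest.

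The size of the E13.5 difference was graded with the length of the gene's coding sequence. Over 77 genes with a GENCODE coding length, Spearman's rho between the difference and the length was 0.67, a description across genes of the same libraries. The 9 genes under 300 coding bases had a median difference of -1.37, the 28 genes from 300 to 450 bases one of -1.18, and the 17 genes from 450 to 600 bases one of -1.04. The 20 genes from 600 to 900 bases had a median of -0.71, and the 3 genes from 900 to 1500 bases one of -0.28. The presence of a pyrimidine run of at least 10 bases sorted the genes less, with a median of -1.12 for the 42 genes with one and -0.98 for the 16 without. That split covers fewer genes than the length classes, because only genes with both a promoter window and a difference could enter.

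Other genes of the same libraries showed a gradient with length too. Among 534 other genes with a mean of at least 100 FPKM, rho was 0.67. Their median differences were -0.78 under 300 coding bases (38 genes), -0.56 from 300 to 450 bases (62 genes), -0.32 from 450 to 600 bases (49 genes), -0.23 from 600 to 900 bases (92 genes), -0.06 from 900 to 1500 bases (147 genes) and 0.12 from 1500 bases on (146 genes). In each of the 5 length classes that hold ribosomal protein genes, their median at that level was below that of the other genes. Subunits of the respiratory chain, a list of short abundant messages added after the gradient had been seen, had a median of -0.85 with 67 of 71 lower past 1.2-fold, and mitochondrial ribosomal proteins one of -0.37 with 49 of 76 lower past 1.2-fold. The part of message length in the lower values of the ribosomal protein genes was not tested.

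**Figure D3:**
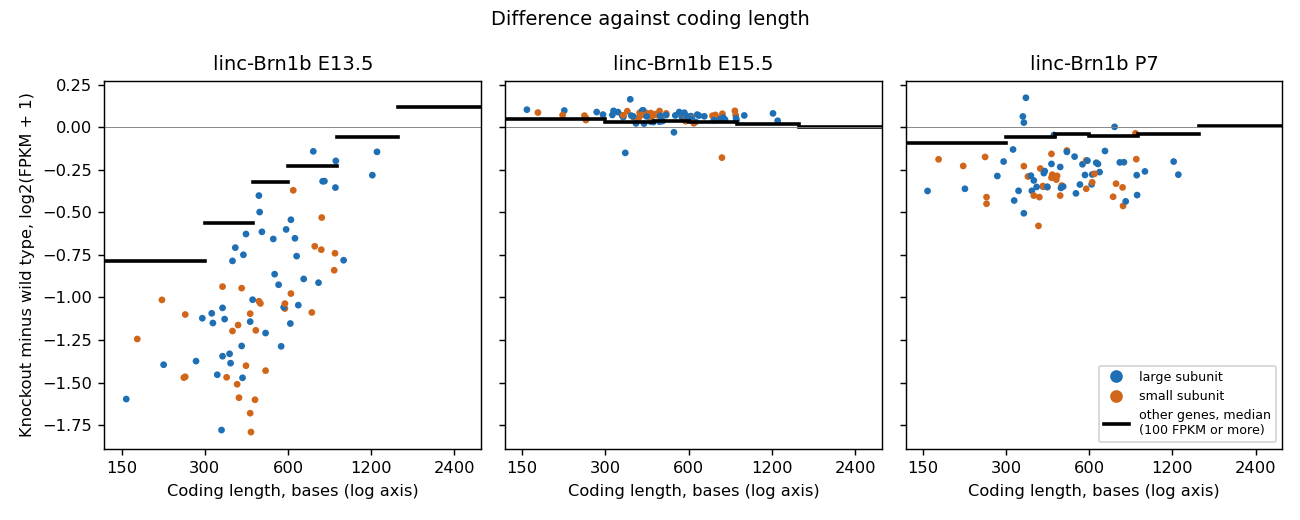
Difference in log2(FPKM + 1), knockout minus wild type, against coding length in bases (log axis) for the ribosomal protein genes in linc-Brn1b telencephalon (E13.5, E15.5) and brain (P7); points are genes, blue for the large and orange for the small subunit, and black lines are medians of other genes of at least 100 FPKM in length classes. At E13.5 the points run from -1.60 for Rpl39 (156 bases) to -0.14 for Rpl4 (1260 bases). At P7 they show little trend with length, and most lie below the black lines, with exceptions such as Rplp1 (0.06) and Rplp2 (0.03).

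Markers of other cell types also differed in this comparison. The summed level of the 10 measured erythroid genes was 1440 FPKM in the wild type against 692 FPKM in the knockout, led by the embryonic globin Hbb-y at 982 and 421 FPKM, and 5 of the 7 genes that entered were lower past 1.2-fold. All 14 endothelial genes were lower, 11 of them past 1.2-fold, with summed levels of 100 and 68.7 FPKM, and the defining gene Cldn5 was at 16.5 and 8.19 FPKM. Choroid plexus genes summed to 178 FPKM in the wild type against 225 FPKM in the knockout. The brain markers summed to 1746 and 1682 FPKM, with 5 of the 10 higher and 5 lower. The part of these cell types in the ribosomal protein values was not tested.

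At E15.5, in the same tissue of the same strain, the ribosomal protein genes were slightly higher in the knockout. The median difference was 0.07 against 0.01 over all genes, 75 of 78 genes were higher, and 0 were past 1.2-fold in either direction, where the background was 0.939% higher and 1.07% lower. Rpl22l1 had the highest difference, at 177 FPKM in the wild type against 198 FPKM in the knockout (0.17), followed by Rpl39 at 1002 and 1077 FPKM (0.10) and Rpl27 at 416 and 446 FPKM (0.10). The lowest were Rps4x at 26.8 and 23.6 FPKM (-0.18), Rpl34 at 11.8 and 10.5 FPKM (-0.15) and Rpl28 at 876 and 890 FPKM (0.02). Rps4x and Rpl34 are doubtful rows described below, and with the doubtful rows left out 74 of 74 genes were higher. Rpl41 was at 1556 and 1638 FPKM. Rps16 was at 721 and 754 FPKM, near its E13.5 wild-type level. Shorter genes tended to the higher differences, the opposite of E13.5: Spearman's rho with coding length was -0.28 over 77 genes and -0.34 over 571 other genes of at least 100 FPKM. The E15.5 and E13.5 comparisons share no group, and rho between their differences was -0.47 over 78 genes, a description across genes of the same strain's table. Choroid plexus genes differed here, with Ttr at 231 FPKM in the wild type against 1.39 FPKM in the knockout, while erythroid genes summed to 228 and 187 FPKM and endothelial genes to 74.0 and 75 FPKM, and their part in these values was not tested.

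At P7, in whole brain, most ribosomal protein genes were lower in the linc-Brn1b knockout, by less than at E13.5. Of 78 genes, 74 were lower and 4 higher, 45 were lower past 1.2-fold and 0 higher, against a background of 12.3% lower and 14.3% higher. The median difference was -0.28 against 0.01 over all genes, and the median gene was at 82.3% of its wild-type level. Small subunit genes had a median of -0.31, with 21 of 31 lower past 1.2-fold, and large subunit genes one of -0.27, with 24 of 47. With both groups scaled to the same sum, 32 genes were lower past 1.2-fold.

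The order of the genes at P7 was not that of E13.5. The lowest were Rps15a at 52.3 FPKM in the wild type against 34.6 FPKM in the knockout (-0.58), Rpl30 at 449 and 316 FPKM (-0.51), and Rps3a at 479 and 348 FPKM (-0.46). The highest were the stalk genes Rplp1 at 949 and 992 FPKM (0.06) and Rplp2 at 428 and 436 FPKM (0.03), and Rpl7l1 at 17.2 and 17.2 FPKM (0.00). Rplp1 thus had the third lowest difference at E13.5 and the highest at P7 among genes of at least 10 FPKM, and the other stalk genes at P7 were Rplp0 at 408 and 341 FPKM (-0.26) and Rpl12 at 502 and 455 FPKM (-0.14). Both 5S ribonucleoprotein genes were lower past 1.2-fold at P7, Rpl5 at 179 and 136 FPKM (-0.40) and Rpl11 at 599 and 458 FPKM (-0.39). The E13.5 and P7 comparisons share no group, and Spearman's rho between their differences over 78 genes was 0.07.

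The P7 values were graded little with coding length. Spearman's rho with coding length was 0.12 over 77 genes and 0.13 over 583 other genes of at least 100 FPKM, and the length classes up to 1500 bases had medians between -0.26 and -0.29. Other genes of at least 100 FPKM had medians between -0.09 and 0.01 in their length classes. Over all genes, 12.3% were lower and 14.3% higher past 1.2-fold. Respiratory chain subunits had a median of -0.04 with 2 of 72 lower past that ratio, and mitochondrial ribosomal proteins one of 0.00 with 4 of 76. Of the 39 translation factors and related genes, 37 were lower, 7 of them past 1.2-fold, with a median of -0.16, and of the 83 ribosome biogenesis genes 5 were lower and 7 higher past 1.2-fold, with a median of -0.05. The 4 ribosomal proteins outside the rule had a median of -0.21 with 1 lower past 1.2-fold. Choroid plexus genes summed to 467 FPKM in the wild type against 320 FPKM in the knockout, and endothelial genes to 109 FPKM in both. Brain markers summed to 1351 and 1139 FPKM, but 5 of the 10 were higher and 5 lower, with a median of 0.01. Erythroid genes summed to 102 and 115 FPKM, and of the 3 that entered 2 were higher and 1 lower. The part of these lists was not tested.

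**Figure D4:**
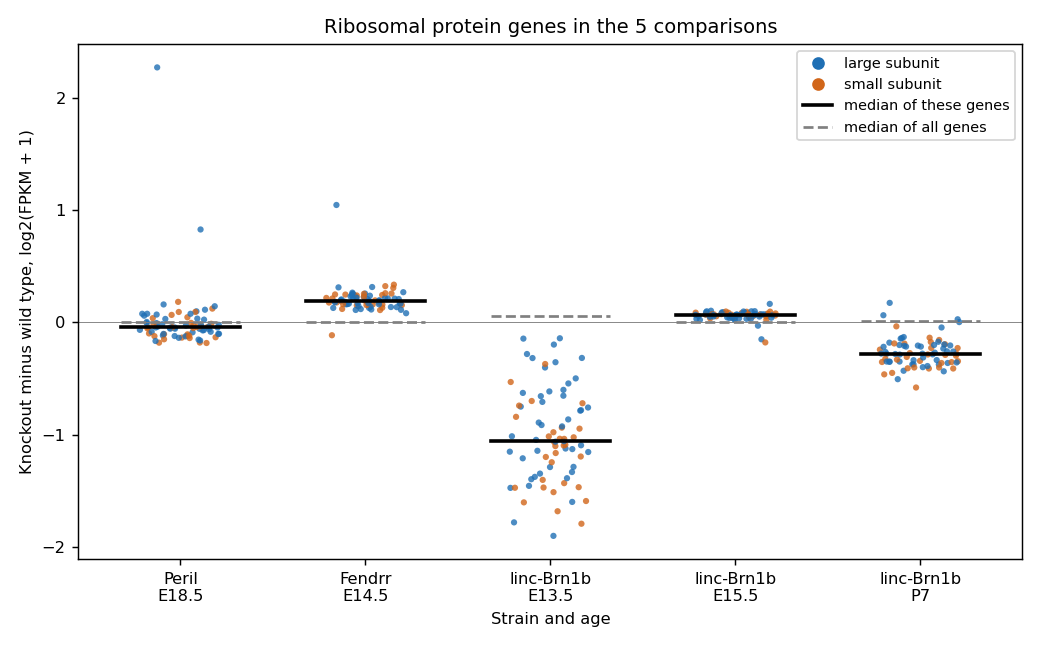
Difference in log2(FPKM + 1), knockout minus wild type, of each ribosomal protein gene with a mean of at least 1 FPKM in the 5 comparisons; points are genes (blue large, orange small subunit), black bars their median and dashed grey bars the median of all genes. The medians are -0.04, 0.19, -1.05, 0.07 and -0.28 from left to right, and the highest points for Peril and Fendrr are Rpl29, a low value described in the text.

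With age, the wild-type linc-Brn1b groups changed little between the embryonic ages and more to P7. From E13.5 to E15.5 the median difference of the 78 genes was -0.03, with 35 higher and 43 lower. Rpl31 was the highest (0.64, from 248 to 387 FPKM) and Rps27l the lowest (-0.44, from 125 to 91.5 FPKM). From E15.5 telencephalon to P7 whole brain the median was -0.85, against -0.10 over all genes, 77 of 78 were lower and 76 were lower past 1.2-fold, as were 42.4% of all genes. Tissue and age changed together in this step.

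The E13.5 knockout departed from this order. From E13.5 to E15.5, knockout values were higher for 77 of 78 genes with a median difference of 1.09, and from E15.5 to P7 they were lower for 77 of 78 with a median of -1.23. From E13.5 directly to P7 the knockout groups differed by a median of -0.07, whereas the wild-type groups differed by -0.79. These steps rest on the same group values as the comparisons above and are no further evidence for them. Rps16 was at 226, 754 and 364 FPKM in the knockout at E13.5, E15.5 and P7, and at 786, 721 and 441 FPKM in wild type. Rpl4 was at 754, 847 and 407 FPKM in the knockout and at 833, 825 and 493 FPKM in wild type, with a smaller gap between genotypes at E13.5 than Rps16.

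In E14.5 lung of the Fendrr strain, nearly all ribosomal protein genes were higher in the knockout by a small amount. Of 79 genes, 78 were higher, 8 of them past 1.2-fold, and 0 were lower past it, against a background of 5.34% higher and 5.58% lower. The median difference was 0.19 against 0.00 over all genes, with 0.19 for both the 48 large and the 31 small subunit genes. The highest of at least 10 FPKM were Rps14 at 1788 FPKM in the wild type against 2256 FPKM in the knockout (0.34), Rps7, whose protein also binds Mdm2, at 1319 and 1650 FPKM (0.32), and Rpl31 at 526 and 655 FPKM (0.31). The lowest were Rps4x at 58.8 and 54.3 FPKM (-0.11), Rpl7l1 at 62.8 and 66.6 FPKM (0.08) and Rps27l at 240 and 259 FPKM (0.11). Rps4x is a doubtful row described below, and with the doubtful rows left out 74 of 74 genes were higher.

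Within the ribosome, exit tunnel genes had 4 of 11 higher past 1.2-fold with a median of 0.23, and stalk genes had a median of 0.18. The lists for other steps of translation, ribosome biogenesis, the respiratory chain and mitochondrial ribosomal proteins had smaller medians of the same sign. Over all genes, 5.34% were higher past 1.2-fold. Translation factors had 2 of 39 higher past that ratio with a median of 0.07, and ribosome biogenesis genes 0 of 83 with a median of 0.02. Respiratory chain subunits had 5 of 73 with a median of 0.13, and mitochondrial ribosomal proteins 0 of 76 with a median of 0.07. Ribosomal proteins outside the rule had a median of 0.17. Shorter genes tended to the higher differences, with a Spearman's rho with coding length of -0.36 over 78 ribosomal protein genes and -0.35 over 616 other genes of at least 100 FPKM. All 12 cardiac muscle genes were higher past 1.2-fold in the knockout, with summed levels of 391 and 1205 FPKM, and endothelial genes summed to 569 and 480 FPKM. Erythroid genes summed to 3684 and 2471 FPKM but went both ways. Of the 9 that entered, 4 were lower and 2 higher past 1.2-fold, with a median of -0.03. The globin Hba-a2 was lower (1815.6 and 968.7 FPKM) and Hbb-y was higher (604.6 and 734.5 FPKM). Rows of the mitochondrial genome, which summed to 18017 FPKM for the wild type, read 0 for the knockout. Without those rows the ribosomal protein share was 21.1% in wild type and 23.0% in knockout. The part of cardiac and red cells in these values was not tested.

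In E18.5 brain of the Peril strain the ribosomal protein genes had the median difference closest to 0. This median difference was -0.04 against 0.00 over all genes, with 57 of 79 lower and 22 higher. Past 1.2-fold, 0 were lower and 2 higher, against a background of 5.24% lower and 6.96% higher. Both had low levels, and among them Rpl29 was at 0.0318 FPKM in the wild type against 3.97 FPKM in the knockout (2.27). Of at least 10 FPKM, the lowest were Rps28 at 1162 and 1024 FPKM (-0.18), Rps16 at 666 and 588 FPKM (-0.18) and Rps13 at 486 and 430 FPKM (-0.18), and the highest were Rps24 at 562 and 638 FPKM (0.18), Rpl22l1 at 205 and 229 FPKM (0.16) and Rpl21 at 190 and 210 FPKM (0.14). Spearman's rho between the difference and coding length was -0.01 over 78 genes, where 570 other genes of at least 100 FPKM had 0.21. Erythroid genes summed to 225 FPKM in the wild type against 144 FPKM in the knockout, endothelial genes to 134 and 114 FPKM and choroid plexus genes to 858 and 592 FPKM, and their part was not tested.

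The copies of ribosomal protein genes behaved differently from each other in level. Rpl22l1, whose protein can replace Rpl22 in the ribosome and whose transcript Rpl22 is known to restrain, was above its parent in all 10 groups. In E14.5 lung it was at 583 FPKM in the wild type against 697 FPKM in the knockout, with Rpl22 at 228 and 283 FPKM, a ratio of 2.56 and 2.46. In E18.5 brain it was at 205 and 229 FPKM, with Rpl22 at 121 and 117 FPKM, a ratio of 1.69 and 1.95. The ratio was thus over 1.5 in both genotypes of each of these strains.

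In the linc-Brn1b table the ratio of Rpl22l1 to Rpl22 ranged more widely. At E13.5 Rpl22l1 was at 237 FPKM in the wild type against 93.7 FPKM in the knockout (-1.33) and Rpl22 at 130 and 79.4 FPKM (-0.71), so the ratio was 1.82 in wild type and 1.18 in knockout. At E15.5 the ratio was 1.17 in wild type, with Rpl22 at 151 FPKM, and 1.29 in knockout, with Rpl22 at 154 FPKM. At P7 Rpl22l1 was at 244 FPKM in the wild type against 200 FPKM in the knockout, Rpl22 at 101 and 79.1 FPKM, and the ratio 2.41 and 2.53. From E15.5 to P7 in wild type Rpl22l1 was the only one of the 78 genes that was higher at P7, with a difference of 0.46, while Rpl22 was lower. The coding lengths of the pair are close, 369 bases for Rpl22l1 and 387 bases for Rpl22.

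**Figure D5:**
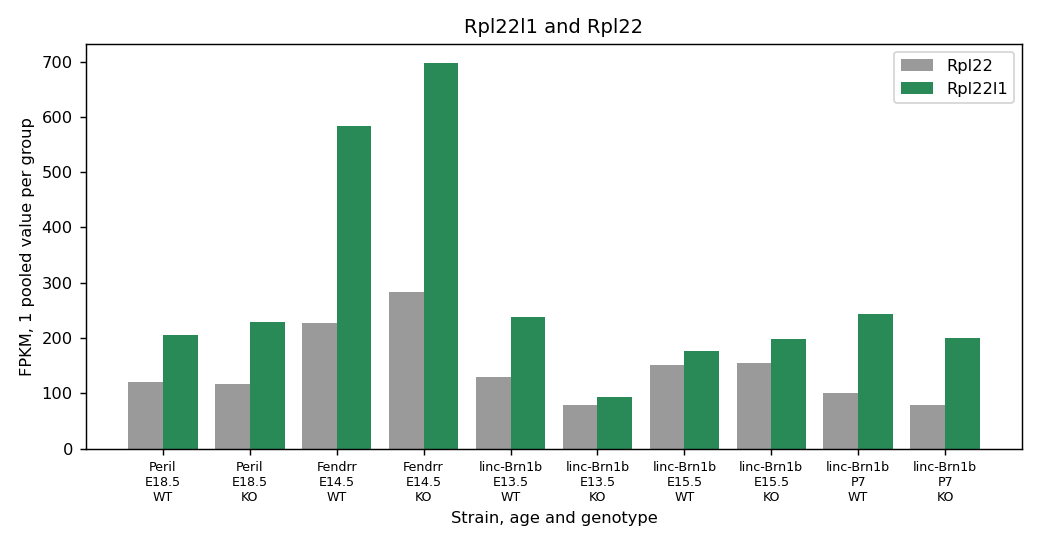
FPKM of Rpl22 (grey) and Rpl22l1 (green) in the 10 groups, 1 pooled value per bar with no error; levels compare within a table only. Rpl22l1 is above Rpl22 in every group, with a ratio from 1.17 in linc-Brn1b E15.5 wild type to 2.56 in Fendrr E14.5 wild type.

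The other copies were lower than their parents. Rps27l, a target of p53, was at 125 FPKM in the wild type against 44.5 FPKM in the knockout at E13.5 (-1.47) and at 48.1 and 35.0 FPKM at P7 (-0.45), and its level was between 5.05% and 9.72% of that of Rps27 over the 10 groups. Rpl7l1 was between 3.39% and 5.32% of Rpl7. Rpl36al was between 30.8% and 65.7% of Rpl36a, and at E13.5 its share was 39.2% in wild type and 60.9% in knockout.

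The testis and muscle copies were near or at 0 in these tissues. Rpl39l, a copy of Rpl39 known from male germ cells, did not exceed 0.255 FPKM in any group, at which it was 0.00936% of Rpl39. Rpl3l, a copy of Rpl3 known from heart and skeletal muscle, did not exceed 0.234 FPKM, and in the Fendrr lung, where cardiac muscle genes were higher in the knockout, it was 0.127 FPKM in the wild type against 0.0752 FPKM in the knockout. Rpl10l, the germ cell copy of the X-linked Rpl10, is listed at 0 in all 10 groups. These 3 genes entered none of the 5 comparisons, and no change can be read from them.

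Some rows carry a ribosomal protein name but values far below the others. The row named Rps4x lies at chr6:147995938-148392874 of mm9, although the gene is annotated on chromosome X, and it was between 13.9 and 58.8 FPKM over all groups. The row named Rpl29 lies at chr1:43179919-43253606, although the gene is annotated on chromosome 9, and it entered the Peril and Fendrr comparisons only. Rpl34, between 3.73 and 24.4 FPKM, shares its position with Rpl34-ps1, at 873 and 370 FPKM at E13.5 (-1.24). Ribosomal protein genes have many retrocopies in the mouse genome, and reads may be split between them, so that the values of these genes are uncertain. In all, 79 of the 82 rows overlap the annotated gene of their name, and Rpl41 has no entry in the annotation used.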

How the data were processed

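RNA of 21 libraries in 10 groups was sequenced by the authors as paired-end reads from poly-A selected RNA, aligned to mm9 with TopHat2 and quantified with Cufflinks (version 2.0.2 in the submitters' processing notes) and Cuffdiff2. The authors deposited FPKM, normalized within each of 3 tables, with 1 value per group. They also deposited log2 fold changes, test statistics, p-values, q-values and test status of their own comparisons, which were not used here. Since 0 columns hold the values of a single library, depth and spread are unknown.

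Genes were chosen by symbol, and differences were taken on log2(FPKM + 1) with a minimum mean of 1 FPKM, using Python 3.11.15, pandas 2.3.3 and NumPy 2.4.6. No test was run, and the share of all genes past 1.2-fold is given as background. The counting was tested on simulated data. Named genes are the 10 lowest and 5 highest at linc-Brn1b E13.5 and the 3 lowest and 3 highest elsewhere, with a mean of at least 10 FPKM, besides the copies, the stalk, 5S and X-linked genes, the ribosomal proteins outside the rule, and of other lists the 2 lowest and 2 highest at E13.5. Rps20, Rpl35a, Rpl23a, Rpl29, Rpl34, the row beside it, Eef1a1, Tuba1a, the named markers and genes traced over other ages were chosen after their values were seen. The genes and lists were chosen with earlier results of these data known. Coding lengths are those of the lowest-numbered GENCODE transcript on mm9. The tables count starts from 0, and 1 was added: of 26 genes whose end equals the annotated end, 14 had the annotated start after adding 1 and 0 without. Alternatives were the pseudocount, the filter, scaling, centring, the fold, and leaving out copies or doubtful rows. Some genes of the set enter the counts and medians but are not reported here by name.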

Additional observations from a re-analysis of the deposited data

How the results depend on the processing

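With 1 pooled value per group, no spread between animals stands beside any difference, and leaving out a replicate was not possible. No paired analysis was possible because no values per library were used. A median was taken as moved when it shifted by over 0.1 on the log2 scale, and a count or share when it changed by over 1.5 times. Of 166 recomputed medians, counts and shares, 152 stayed within these limits and none of the medians changed sign.

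Scaling each group to the same sum moved the E13.5 median to -0.87 and the wild-type median from E15.5 to P7 to -0.74, and centring on all genes moved the latter to -0.74 too. These shifts follow from the scaling itself. A ratio of 1.1 in place of 1.2 gave 5 higher and 8 lower genes for Peril, 66 higher for Fendrr, 1 higher and 2 lower for linc-Brn1b at E15.5, and 1 higher and 70 lower at P7, with 18.6% and 16.0%, 14.9%, 4.47% and 4.55%, and 29.1% and 25.5% of all genes. A ratio of 1.5 gave 1 higher for Fendrr and 0 lower at P7, with 1.41% and 2.24% of all genes, and left 66 lower at E13.5, with 5.52%. A minimum mean of 10 FPKM, or leaving out 5 doubtful rows (an alternative chosen after seeing the data), left 0 higher for Peril. Among single genes, Rpl7l1 (0.042) and Rpl4 (0.042) at E13.5 changed sign under scaling, and Rpl7l1 at P7 (-0.01) under centring.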
